A study of Bos taurus with 2 samples.

Results

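Intermediate filaments are the third kind of cytoskeletal fiber beside actin filaments and microtubules, and the 7 genes described here encode the main ones expected in muscle precursor cells. DES (desmin), VIM (vimentin), NES (nestin) and SYNM (synemin) form filaments in the cytoplasm, and LMNA, LMNB1 and LMNB2 encode the lamins that line the inside of the nuclear envelope. The genes were taken by name from the 21867 genes in the deposited feature list, without a threshold on any measured value. Earlier results of these data were known when they were chosen. All 7 were found once, by symbol, and all had UMIs.

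Vimentin is the filament protein of mesenchymal and immature muscle cells, desmin replaces it as muscle cells mature and in the fiber ties myofibrils together at the Z-disk, and nestin and synemin are large proteins that need vimentin or desmin as a partner to enter filaments. LMNA gives rise to lamins A and C, whose amount is known to differ between tissues. LMNB1 and LMNB2 give rise to the B-type lamins, which stay attached to the membrane through a lipid group, and LMNB1 is known to be high in dividing cells.

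The cells came from the longissimus muscle of 1 male Holstein calf aged 2 weeks, and were satellite cells, the resident stem cells of muscle, that had been grown for 1 week in DMEM with 10% FBS. Both libraries, called replicates 1 and 2, were made from these same cells with the 10x Genomics 3′ chemistry, which counts each captured RNA molecule once through a unique molecular identifier (UMI). There was no treatment, so the groups compared are the 15 clusters the authors made of the cells. Because both libraries share 1 culture of 1 calf, the spread between them is technical, and p-values below measure differences beyond that technical spread only.

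The study assigned clusters 8, 5 and 4 to satellite cells, clusters 1 and 2 to myoblasts, clusters 3 and 12 to myocytes (differentiating myoblasts) and clusters 9 and 7 to fibro-adipogenic progenitors, the connective tissue cells that can form fat. The remaining clusters were given no identity. The study held that they were not myogenic, because myogenic markers were not significantly higher in them. The counts bore out part of these names. The 7 myocyte genes on a list of markers summed to 72.9 UMIs per 10000 in cluster 12 and 11.6 in cluster 3. The other clusters ran from 0.451 to 14.3, with 14.3 in cluster 15 and 10.5 in cluster 7. The 3 myoblast genes did not set clusters 1 and 2 apart. They summed to 6.75 and 7.44 there, beside 7.48, 6.65 and 6.22 in clusters 13, 6 and 10, which the study held not to be myogenic. PDGFRA, which marks fibro-adipogenic progenitors, was highest in cluster 9. The collagens and other matrix genes on the list for these progenitors were not particular to cluster 9, where the list summed to 56.5, below the 174 of cluster 8 and the 338 of cluster 7. The summed endothelial and blood markers stayed at or below 0.148 UMIs per 10000 in every cluster. The glia and nerve list ran from 0.12 to 0.541, most of it S100B (9004 UMIs), while SOX10 and FOXD3 on it had 0 UMIs. CDH1 made up most of an epithelial list that reached 0.911 in cluster 7, and ACTA2 (190636 UMIs) most of a pericyte and smooth muscle list of 3.75 to 9.76.

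Replicate 1 held 9939 cells and 145631299 UMIs, and replicate 2 held 9157 cells and 137818568 UMIs. The libraries had 27 cell barcodes in common. Clusters 7, 13, 14 and 15 were shallow, with medians of 1389, 1631, 2513.5 and 647 UMIs per cell, cluster 10 had a median of 5398.5, and the remaining clusters lay between 12929 and 23011. Levels are given as UMIs of a gene per 10000 UMIs of the cluster, as mean ± SD of the 2 libraries. A level is therefore a share of the RNA counted, and capture can differ between genes, so that levels are compared between clusters and not read as amounts of protein.

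VIM was the most counted of the 7 genes, with 2382873 UMIs and a level of 84.1 ± 0.761 (SD, n = 2) over all cells. NES followed with 418417 UMIs and a level of 14.8 ± 0.249, and DES with 128980 UMIs and a level of 4.55 ± 0.0932. SYNM was rare, with 2152 UMIs and a level of 0.0759 ± 0.00113. These 4 genes of the cytoplasm were detected in 99.9% (VIM), 94.8% (NES), 73.6% (DES) and 9.83% (SYNM) of the 19096 cells. A median cell held 105 UMIs of VIM, 13 of NES, 2 of DES and 0 of SYNM.

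Among the lamins, LMNA had 117175 UMIs, LMNB1 43865 and LMNB2 16842, with overall levels of 4.16 ± 1.34, 1.55 ± 0.00409 and 0.594 ± 0.0102. They were detected in 88.2%, 65.6% and 45.6% of the cells. The SD of LMNA was far larger relative to its mean than that of the other members, and its values are therefore given for each library below.

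**Figure D1:**
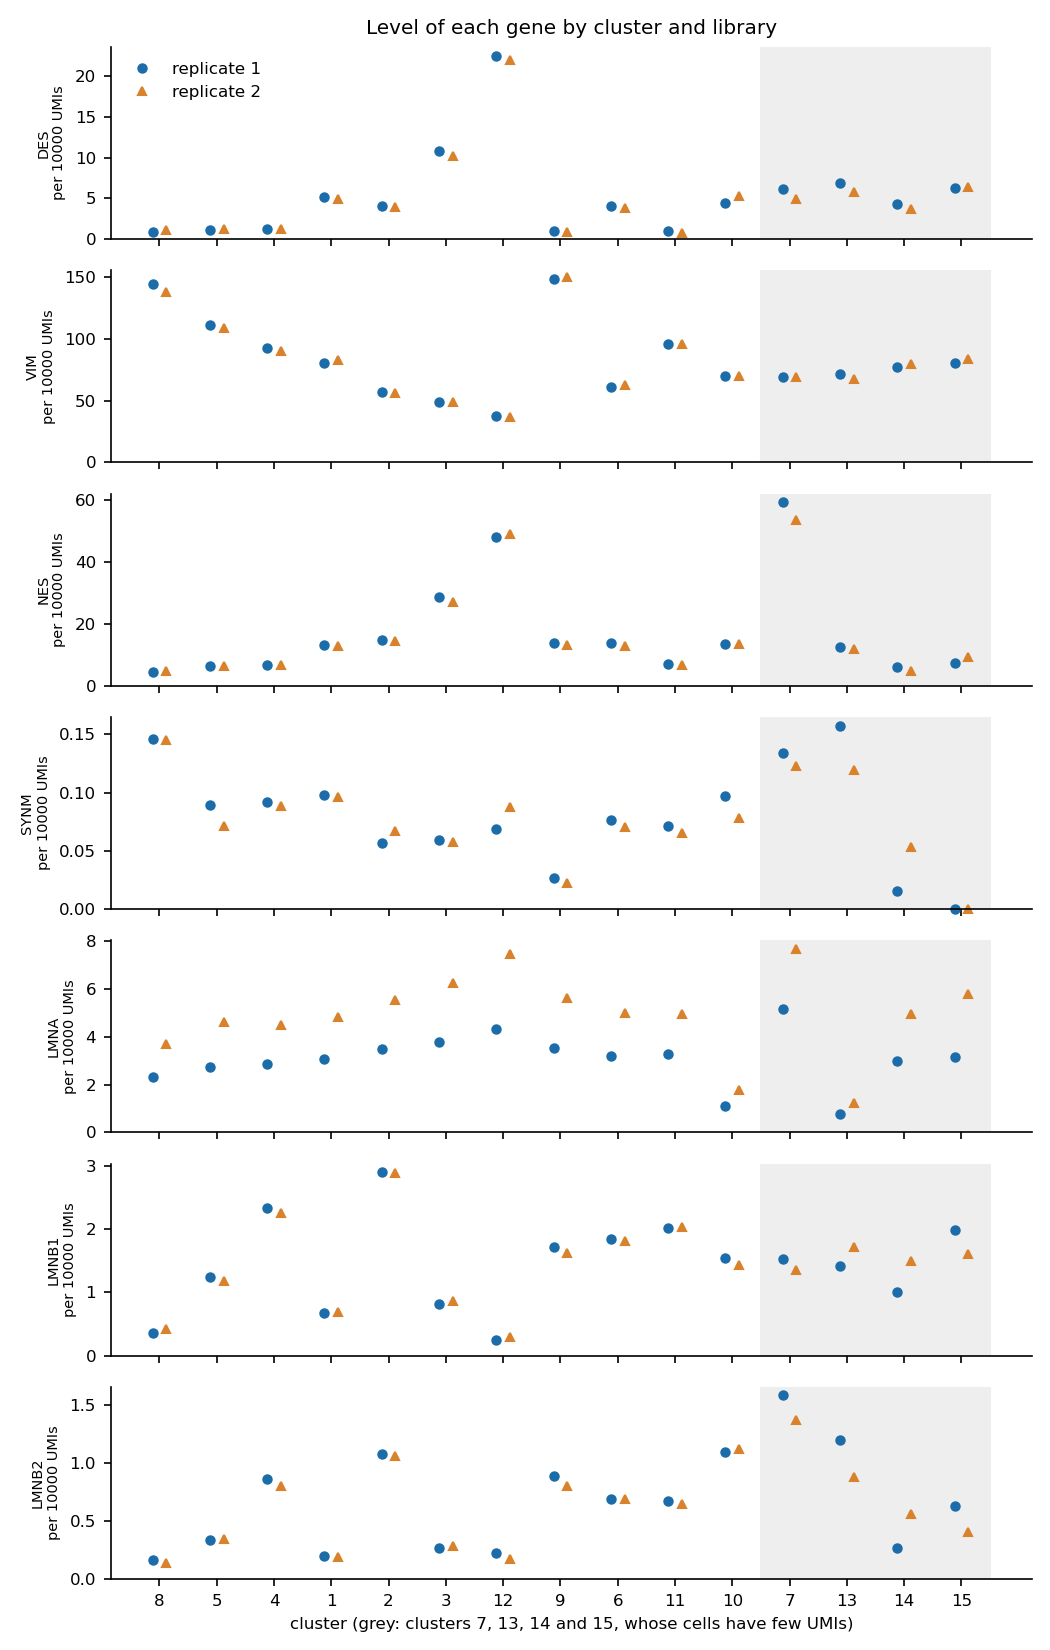
Level of each of the 7 genes (UMIs per 10000 UMIs, linear axes from 0) in the 15 clusters, with 1 point per library. DES and NES stood highest among the deeply sequenced clusters in cluster 12, VIM was lowest there, LMNB1 peaked in clusters 2 and 4, and LMNA was higher in replicate 2 in 15 of 15 clusters.

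DES was highest in the clusters assigned to myocytes. The study had used DES, beside MYOD1 and MYF5, to name clusters 1, 2, 3 and 12 as myogenic. The level of DES in these clusters is therefore not independent of their names. Its level was 22.5 in replicate 1 and 22.0 in replicate 2 in cluster 12, 10.8 and 10.2 in cluster 3, and 5.10 and 4.93 in cluster 1. The libraries did not overlap between any of these 3 clusters, so that the order 12, 3, 1 held in both. Among the deep clusters, cluster 10 followed with 4.39 and 5.27, which overlapped cluster 1. Cluster 2 with 4.04 and 3.99 and cluster 6 with 4.08 and 3.78 were lower and not apart from each other.

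Clusters 4, 5, 8, 9 and 11 formed a low group. DES was at 1.27 in both libraries in cluster 4, at 1.15 and 1.29 in cluster 5 and at 0.878 and 1.07 in cluster 8, the 3 clusters assigned to satellite cells. In cluster 9 it was at 0.968 and 0.813, and in cluster 11 at 0.932 and 0.762, the lowest of all. Clusters 8, 9 and 11 overlapped, and the mean of cluster 12 was 26.3 times that of cluster 11. The shallow clusters 7, 13, 14 and 15 had means between 4.03 and 6.37.

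Compared with all other cells, DES passed the test in 11 of 15 clusters, being higher in 4 (clusters 1, 3, 12 and 13) and lower in 7. In cluster 12 the log2 fold change was 2.75 ± 0.058 (SE; Benjamini-Hochberg adjusted p = 8.73e-07 in the quasi-likelihood test of edgeR, on 2 library sums against 2), and in cluster 3 it was 1.64 ± 0.059 (adjusted p = 1.52e-05). It fell by 2.54 on the log2 scale in cluster 11 (SE 0.089, adjusted p = 4.53e-05), by 2.50 in cluster 9 (SE 0.088, adjusted p = 6.18e-06) and by 2.24 in cluster 8 (SE 0.088, adjusted p = 4.30e-05). The higher calls stand beside 14.9% of all gene and cluster pairs tested and the lower ones beside 17.1%.

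Taken over the 7 genes and 15 clusters, 66 of 105 comparisons with all other cells passed, 26 higher and 40 lower. This is 62.9%, beside 32.1% of all pairs of gene and cluster. In clusters 3, 4 and 8, 6 of 7 members passed, where 49.9%, 31.6% and 46.0% of all genes did. In clusters 1, 2, 5, 7, 9, 12 and 13, 5 members passed, where the shares of all genes were 33.4%, 31.8%, 24.1%, 44.7%, 53.0%, 54.3% and 17.3%. In clusters 10 and 11, 4 passed (38.6% and 26.5% of all genes), in cluster 6, 3 passed (20.1%), and in clusters 14 and 15 only NES did (7.79% and 0.273%). The clusters were defined on these same counts and share their comparison cells, so the p-values of different clusters are not independent of each other or of the clustering. Differences are relative to TMM scaling, without which the median log2 fold change of all genes went from -0.12 to 0.53 in cluster 7. It went from -0.37 to -0.15 in cluster 15, from -0.09 to -0.27 in cluster 12, from 0.00 to -0.14 in cluster 3 and from -0.03 to 0.08 in cluster 10.

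The share of cells with a DES UMI was compared after every cell had been thinned to 1000 UMIs, since deep cells show more genes. It was 84.8% in cluster 12 (95% exact binomial interval 81.8% to 87.6%, counting error only), 60.1% in cluster 3 (58.0% to 62.3%) and 35.2% in cluster 1 (33.3% to 37.1%). The lowest shares were 7.04% in cluster 9 (5.58% to 8.73%) and 7.46% in cluster 11, with 9.51%, 10.1% and 10.5% in clusters 8, 5 and 4. Cluster 9, whose PDGFRA-positive cell type should lack desmin, was taken as the background for this share, which is an assumption. Its median depth was 23011 UMIs, against 17669, 13158 and 14502 in clusters 11, 8 and 5. The intervals of these 3 clusters (5.78% to 9.44%, 7.93% to 11.3% and 8.64% to 11.6%) overlapped that of cluster 9. This depended on the cells with the highest doublet scores. Without them, cluster 9 was at 5.86% (4.43% to 7.58%). Clusters 8 and 5 then lay above it, at 9.44% (7.86% to 11.2%) and 9.47% (7.99% to 11.1%). Cluster 11 still overlapped it, at 7.22% (5.53% to 9.24%). Overlap of intervals does not test for a difference, and no test between these shares was run. The shares of clusters 11, 8, 5 and 4 were therefore read neither as DES expression nor as its absence, and their sources were not tested. The sources of the DES UMIs in cluster 9 were not tested. Without thinning, the shares were 100% in cluster 12 and 54.2% in cluster 9.

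Within a cluster, the count of DES UMIs varied widely from cell to cell. These counts were not scaled to the depth of each cell, and the part of depth or counting error was not tested. Cells of cluster 12 held a median of 37 UMIs of DES, with 13 at the 5th percentile, 96 at the 95th and a maximum of 171. In cluster 3 these values were 16, 4, 43 and 97. In cluster 9 the median was 1 and the 95th percentile 11, yet single cells reached 68 UMIs. When the 8% of cells with the highest doublet scores in each library were left out, which removed 14.7% of cluster 9, the DES difference of cluster 9 from all other cells went from -2.50 to -3.08, and that from cluster 1 from -2.61 to -3.22.

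VIM, by contrast, was present in nearly every cell and lowest where DES was highest. Its level was 149 in replicate 1 and 150 in replicate 2 in cluster 9, 145 and 138 in cluster 8, and 111 and 109 in cluster 5. It was 49.1 in both libraries in cluster 3, and 37.9 and 36.6 in cluster 12, the lowest of the 15. The libraries of neighbors in this order were apart in 11 of 14 pairs, and the highest cluster mean was 4.03 times the lowest.

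Against all other cells, VIM was higher in 5 clusters and lower in 7. Large differences were in cluster 12 (log2 fold change -1.03 ± 0.051, adjusted p = 1.57e-05), cluster 9 (0.92 ± 0.047, adjusted p = 2.23e-05) and cluster 8 (0.86 ± 0.043, adjusted p = 8.19e-05). Cluster 7 had -0.94 ± 0.058 (adjusted p = 1.30e-04), which was -0.29 (adjusted p = 0.00677) without TMM. Even in cluster 12, 94.9% of cells thinned to 1000 UMIs had a VIM UMI (92.9% to 96.5%), and a median cell held 68. Cells of cluster 9 held a median of 358.5 UMIs of VIM, with a maximum of 977.

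NES resembled DES in the deep clusters. It was at 48.1 in replicate 1 and 48.8 in replicate 2 in cluster 12, 28.5 and 27.1 in cluster 3, and 14.6 and 14.4 in cluster 2, while clusters 11, 4, 5 and 8 had means of 6.81, 6.77, 6.30 and 4.48. Cluster 12 lay 10.8 times above cluster 8. Unlike DES, NES reached 13.4 ± 0.416 in cluster 9, within the range of clusters 10, 6 and 1 (13.5, 13.3 and 12.9). Its highest level was in shallow cluster 7, with 59.2 and 53.5.

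NES passed the test against all other cells in 13 of 15 clusters, higher in clusters 12 (log2 fold change 2.05 ± 0.053, adjusted p = 1.55e-06), 7 (1.31 ± 0.070, adjusted p = 1.00e-04) and 3 (1.24 ± 0.058, adjusted p = 3.28e-05), and lower in 10. Cluster 8 was lowest (-1.73 ± 0.046, adjusted p = 1.58e-05). The calls in clusters 1 (-0.14) and 15 (-1.05) were lost in 3 of 8 and 3 of 7 alternative settings. At 1000 UMIs a cell, NES was found in 98.1% of the cells of cluster 12, and in clusters 3, 7, 9 and 8 the shares were 89.9%, 89.0%, 69.5% and 32.1%. The cluster 7 share rests on 1008 cells, since 290 cells there had fewer than 1000 UMIs.

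SYNM was too rare for most comparisons, at 0.146 and 0.145 in cluster 8, where it was highest among the deep clusters, and at 0.0268 and 0.0222 in cluster 9, where it was lowest among them. Both libraries of cluster 8 were above, and both of cluster 9 below, those of every other deep cluster. Relative to the remaining cells, it differed by 1.07 ± 0.082 on the log2 scale in cluster 8 (adjusted p = 3.18e-04) and -1.76 ± 0.13 in cluster 9 (adjusted p = 1.12e-04), and 9 of 15 clusters did not pass. Of the other calls, those in clusters 2 (-0.36) and 4 (0.29) were lost in 5 and 3 of 8 alternative settings. Cluster 15 had 0 SYNM UMIs among 219359, where a count of 0 allows up to 3 counts, so no fold is given.

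The study drew 1 trajectory from cluster 8 through cluster 1 and cluster 3 to cluster 12, and another from cluster 8 through cluster 5 and cluster 4 to cluster 2. Neighboring clusters on these paths were compared directly, to see at which step each filament gene differed. VIM was lower in the later cluster in 6 of 6 steps, DES and NES were each higher in 5 of 6, and SYNM was lower in 4 of 6. For DES this includes the step from cluster 8 to cluster 5. There the sources of the DES UMIs were not tested, and the call was lost in some alternative settings. In all, 31 of 42 comparisons passed the test, 20 higher and 11 lower. This is 73.8%, where 30.5% of all genes tested over the same steps passed. Consecutive steps share a cluster and are not independent.

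On the path to myocytes, DES had log2 fold changes of 2.40 ± 0.087 from cluster 8 to cluster 1 (adjusted p = 1.02e-06), 1.10 ± 0.053 from cluster 1 to cluster 3 (adjusted p = 2.00e-05) and 1.18 ± 0.055 from cluster 3 to cluster 12 (adjusted p = 3.57e-06). For NES the values at the same steps were 1.56 ± 0.054, 1.15 ± 0.050 and 0.90 ± 0.050, and all 3 passed. VIM fell by 0.76, 0.70 and 0.30 on the log2 scale, with SEs of 0.045, 0.043 and 0.050, and also passed at each step. Of the 7 members, 6, 6 and 4 passed at these steps, beside 34.1%, 40.2% and 33.8% of all genes.

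On the other path, DES and NES changed by less than at the steps above until the last step. The first step had the same directions for DES, NES and VIM on both paths. DES was 0.32 ± 0.10 higher in cluster 5 than in cluster 8 (adjusted p = 0.040, lost in 2 of 7 alternative settings), differed by 0.03 ± 0.063 between clusters 4 and 5 (adjusted p = 0.758), and was 1.65 ± 0.038 higher in cluster 2 than in cluster 4 (adjusted p = 8.74e-06). NES had values of 0.49 ± 0.047, 0.08 ± 0.039 and 1.08 ± 0.034, of which the first and last passed. With the library as a block the difference between clusters 4 and 5 passed too (0.08, adjusted p = 0.0132). VIM was lower at each step, by -0.35 ± 0.038, -0.29 ± 0.038 and -0.70 ± 0.034. Of the 7 members, 6, 3 and 6 passed, beside 28.5%, 16.4% and 30.2% of all genes.

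**Figure D2:**
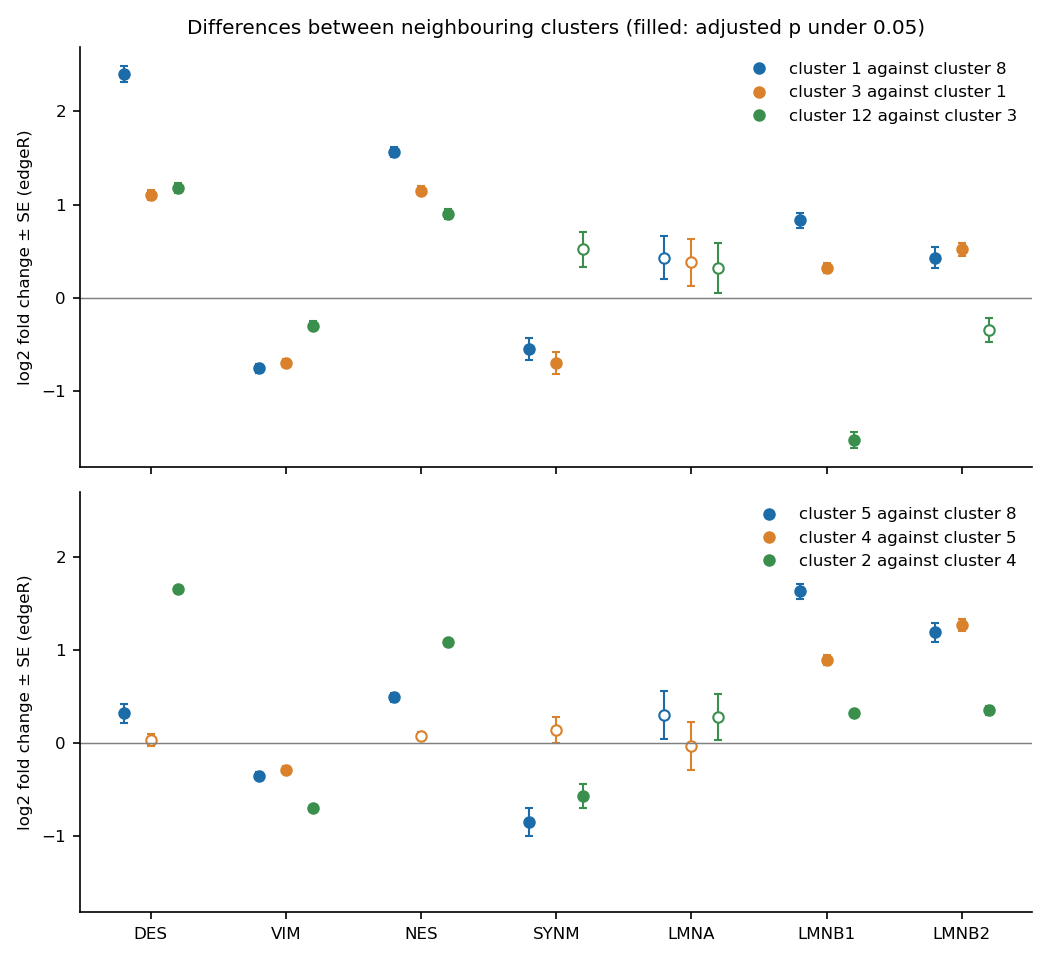
Log2 fold change ± SE (edgeR, 2 library sums against 2) of each gene between neighboring clusters on the path to myocytes (upper panel) and on the path to cluster 2 (lower panel), where filled points passed an adjusted p of 0.05. VIM was below 0 at all 6 steps, and LMNB1 turned from 0.32 to -1.53 between the second and the last step of the upper path.

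The balance of DES and VIM thus differed widely between clusters. The ratio of DES to VIM was 0.593 in replicate 1 and 0.602 in replicate 2 in cluster 12, 0.220 and 0.207 in cluster 3, and 0.0633 and 0.0594 in cluster 1. It was 0.00605 and 0.00780 in cluster 8 and 0.00648 and 0.00540 in cluster 9. The ratio of NES to VIM ran from 0.0317 ± 0.00297 in cluster 8 to 1.30 ± 0.0445 in cluster 12, where NES was the most counted of the 7 genes. The 4 cytoplasmic genes together stayed within a narrower range, from 75.5 UMIs per 10000 in cluster 2 to 164 in cluster 9, with 108 in cluster 12.

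Over the 15 cluster means, Pearson's r of log2(level + 0.1) was -0.89 between DES and VIM, 0.70 between DES and NES and -0.68 between VIM and NES. Without the 4 shallow clusters, these were -0.92, 0.90 and -0.82. The points share their libraries and the total to which all levels are scaled, and the values describe these clusters only.

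**Figure D3:**
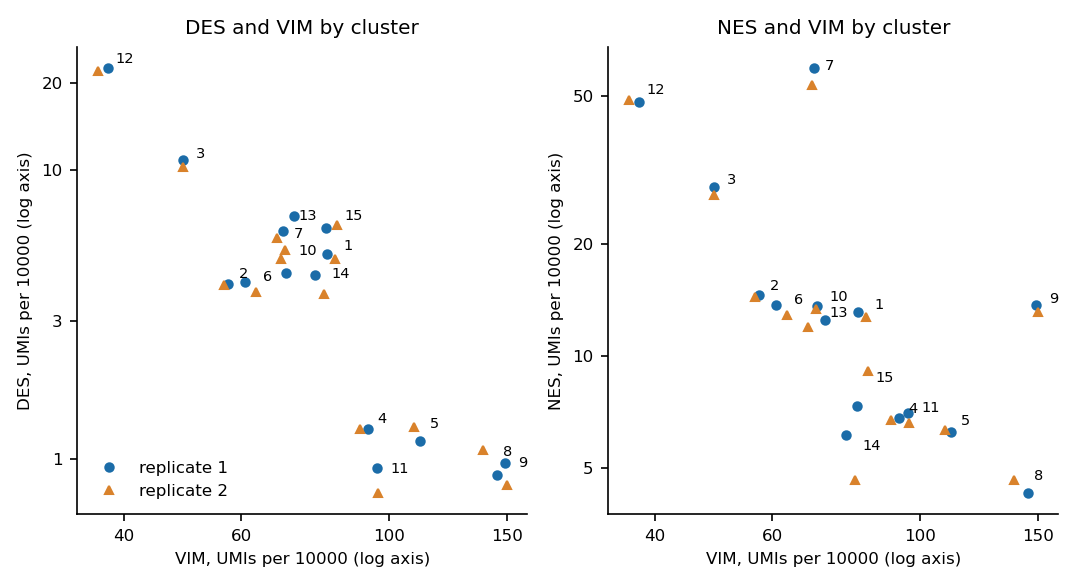
DES (left) and NES (right) against VIM, as UMIs per 10000 UMIs on log axes, with 1 point per cluster and library and the cluster number beside it. Clusters 12 and 3 lie at low VIM and high DES and NES, clusters 8 and 9 at high VIM and low DES, and clusters 7 and 9 lie above the other clusters of like VIM for NES.

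In single cells, DES and NES were found together somewhat more often than their separate shares give. At 1000 UMIs a cell, the share of cells with both was above the product of the single shares in 15 of 15 clusters. It was 23.5% beside 21.7% in cluster 1, 21.7% beside 19.7% in cluster 2 and 55.3% beside 54.0% in cluster 3. At 2000 UMIs it was above in 13 of the 14 clusters with cells of that depth. DES and VIM showed no such excess, since nearly every cell had VIM, and DES and LMNB1 were together above the product in 4 of 15 clusters.

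Cells were also divided, within each cluster, by whether they held a UMI of MYOG, the transcription factor of muscle differentiation. In cluster 2, the 801 cells with MYOG had a DES level of 5.13 ± 0.222 and the 1318 cells without it 3.25 ± 0.155. In cluster 6, which has no identity, the values were 5.06 and 3.26, and in cluster 10 they were 7.21 and 3.07. In cluster 8, with 0.996 and 0.973, and in cluster 11, with 0.841 and 0.848, the levels were alike.

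In cluster 3, NES was at 29.1 ± 1.07 in cells with MYOG and 23.4 ± 0.815 in cells without it, and VIM at 48.5 ± 0.487 and 51.3 ± 1.66. In cluster 9 the DES level was 1.42 in the 255 cells with MYOG and 0.695 in the 825 without. Cells with MYOG were deeper, with medians of 18910 and 16692.5 UMIs in cluster 2 and 25536 and 22401 in cluster 9, and the part of depth or doublets in these differences was not tested.

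LMNA differed more between the libraries than any other member. Its level was 3.21 in replicate 1 and 5.11 in replicate 2 over all cells, a log2 ratio of -0.67. The other 6 members had ratios between 0.01 and 0.04. Among 9067 genes with at least 1000 UMIs, 120 (1.32%) differed more between the libraries than LMNA did, and the median absolute log2 difference was 0.0473. Replicate 2 was higher in 15 of 15 clusters, by 0.58 to 0.88 on the log2 scale, so the offset was much the same in every cluster. Its cause was not tested.

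**Figure D4:**
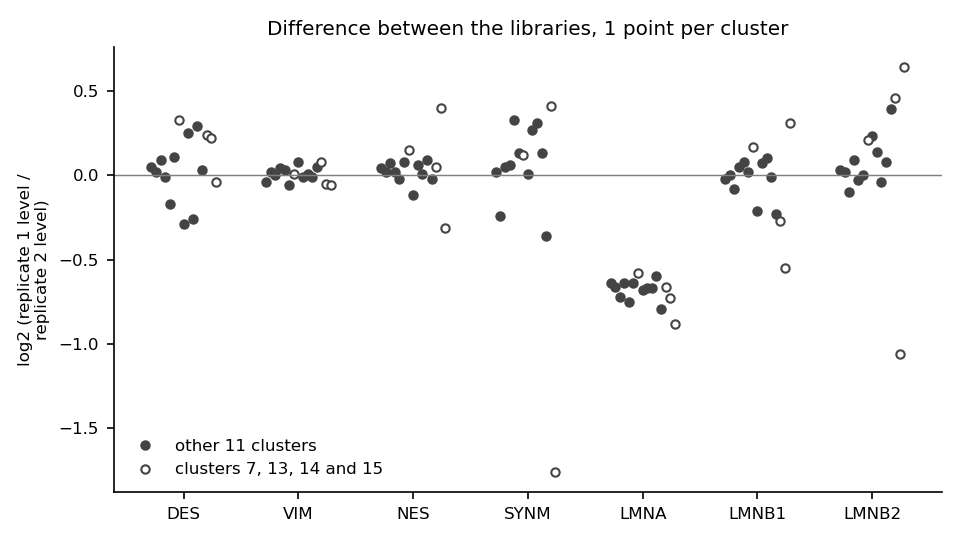
Log2 ratio of the level in replicate 1 to that in replicate 2 for each gene, with 1 point per cluster (open points are the shallow clusters 7, 13, 14 and 15; SYNM in cluster 15, with 0 UMIs, is left out). All 15 LMNA points lie between -0.58 and -0.88, while the deep clusters of the other genes scatter around 0.

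Read within each library, LMNA kept an order among the clusters. It was 4.33 in replicate 1 and 7.47 in replicate 2 in cluster 12, 3.80 and 6.27 in cluster 3, 3.08 and 4.81 in cluster 1, and 2.31 and 3.69 in cluster 8. Along the path to myocytes the later cluster was higher in both libraries at each step. After TMM scaling, which these levels do not have, the log2 differences were 0.45 and 0.40 from cluster 8 to cluster 1. They were 0.33 and 0.41 from cluster 1 to cluster 3, and 0.30 and 0.35 from cluster 3 to cluster 12. At this last step the median of all genes was -0.02 with TMM and -0.12 without it. In the fit without the library as a term, none of these steps passed, with log2 fold changes of 0.43 ± 0.23, 0.38 ± 0.25 and 0.32 ± 0.27 and adjusted p of 0.194, 0.268 and 0.392.

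With the library as a block, which sets each cluster against its comparison within a library, all 3 passed (adjusted p = 1.39e-15, 3.04e-51 and 5.55e-23, edgeR). So did LMNA between clusters 5 and 8 (0.30, adjusted p = 4.04e-12) and between clusters 2 and 4 (0.28, adjusted p = 4.65e-07), while clusters 4 and 5 differed by -0.02 (adjusted p = 0.660). Against all other cells the block raised the LMNA calls from 2 to 9 of 15 clusters. With the block, 45.4% of all genes passed over the steps and 42.3% over the clusters. That fit keeps 1 residual degree of freedom a gene and takes most or all of its spread from all genes. It took all of it from them for cluster 3 against cluster 1 and cluster 12 against cluster 3. Its small p-values rest on that shared estimate.

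Against all other cells, LMNA passed without the block in clusters 10 and 13 alone. In cluster 10 it was at 1.12 and 1.79, with a log2 fold change of -1.65 ± 0.26 against all other cells (adjusted p = 0.0027), and in cluster 13 at 0.768 and 1.21 (-2.23 ± 0.36, adjusted p = 0.00735, lost in 1 of 8 alternatives). At 1000 UMIs a cell and with the libraries pooled, 11.4% of cells in cluster 10 and 9.41% in cluster 13 had an LMNA UMI. The other 10 deep clusters ran from 26.0% to 41.3%. The B-type lamins had no drop of this size in cluster 10. LMNB1 was at 1.49 ± 0.0739 there, beside 1.55 ± 0.00409 over all cells. It passed the edgeR test only with the library as a block (adjusted p = 0.00515, and 0.0554 without it). LMNB2, at 1.10 ± 0.0206, was higher there than in all other cells (log2 fold change 0.81 ± 0.062, adjusted p = 1.27e-04).

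LMNB1 was highest in cluster 2, with 2.90 in replicate 1 and 2.89 in replicate 2, followed by cluster 4 with 2.33 and 2.26, cluster 11 with 2.01 and 2.03 and cluster 6 with 1.85 and 1.82. It was lowest in cluster 12, with 0.249 and 0.291, next to cluster 8 with a mean of 0.396 and cluster 1 with 0.687. The mean of cluster 2 was 10.7 times that of cluster 12. At 1000 UMIs a cell, 26.5% of cells had an LMNB1 UMI in cluster 2 (24.6% to 28.4%) and 1.91% in cluster 12 (0.993% to 3.32%).

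The log2 fold change of LMNB1 against all other cells was 1.11 ± 0.032 in cluster 2 (adjusted p = 6.16e-05) and 0.67 ± 0.037 in cluster 4 (adjusted p = 2.28e-04). It was -2.39 ± 0.077 in cluster 12 (adjusted p = 3.52e-06), -1.99 ± 0.067 in cluster 8 (adjusted p = 2.89e-05) and -1.20 ± 0.037 in cluster 1 (adjusted p = 2.28e-05). On the path to myocytes it rose by 0.83 ± 0.078 and 0.32 ± 0.050 at the first and second steps and fell by 1.53 (SE 0.084, adjusted p = 9.23e-06) at the last. On the other path it was higher at each step, by 1.63 ± 0.079, 0.89 ± 0.052 and 0.32 ± 0.039.

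LMNB2 followed a similar order among the deep clusters, with 1.09 and 1.12 in cluster 10, 1.08 and 1.06 in cluster 2, 0.883 and 0.801 in cluster 9, and 0.857 and 0.803 in cluster 4. The lowest deep clusters were cluster 12 with 0.228 and 0.174, cluster 1 with 0.197 and 0.193 and cluster 8 with 0.160 and 0.136. Against all other cells, LMNB2 differed by 1.04 ± 0.040 in cluster 2 (log2 scale, adjusted p = 1.06e-04), by -1.43 ± 0.12 in cluster 12 (adjusted p = 1.26e-04) and by -2.02 ± 0.081 in cluster 8 (adjusted p = 4.58e-05). Between clusters 4 and 5 it was 1.27 ± 0.064 (adjusted p = 1.66e-05). From cluster 3 to cluster 12 the value was -0.35 ± 0.13, which did not pass (adjusted p = 0.0764, and 0.0048 with the library as a block).

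The levels of the B-type lamins were set beside those of cell division genes. The 12 G2/M markers on a list summed to 61.5 UMIs per 10000 in cluster 2 and 60.9 in cluster 4, and to 4.33, 4.61, 2.88 and 2.85 in clusters 1, 3, 12 and 8. The S phase list was highest in clusters 11 (20.8) and 6 (20.7), where LMNB1 stood at 2.02 and 1.84. Cluster 7 departed from this order for LMNB1, with a G2/M sum of 47.7, an LMNB1 level of 1.44 ± 0.123, the ninth of 15, and the highest LMNB2. LMNB2 also departed from it in clusters 10, 13 and 9, whose G2/M sums were 23.1, 22.1 and 24.1. It stood there at 1.10, 1.04 and 0.842, beside 1.07 and 0.83 in clusters 2 and 4. Over the 15 clusters, r between LMNB1 and LMNB2 was 0.81, or 0.89 without the shallow ones, while r of LMNA with LMNB1 was -0.13.

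**Figure D5:**
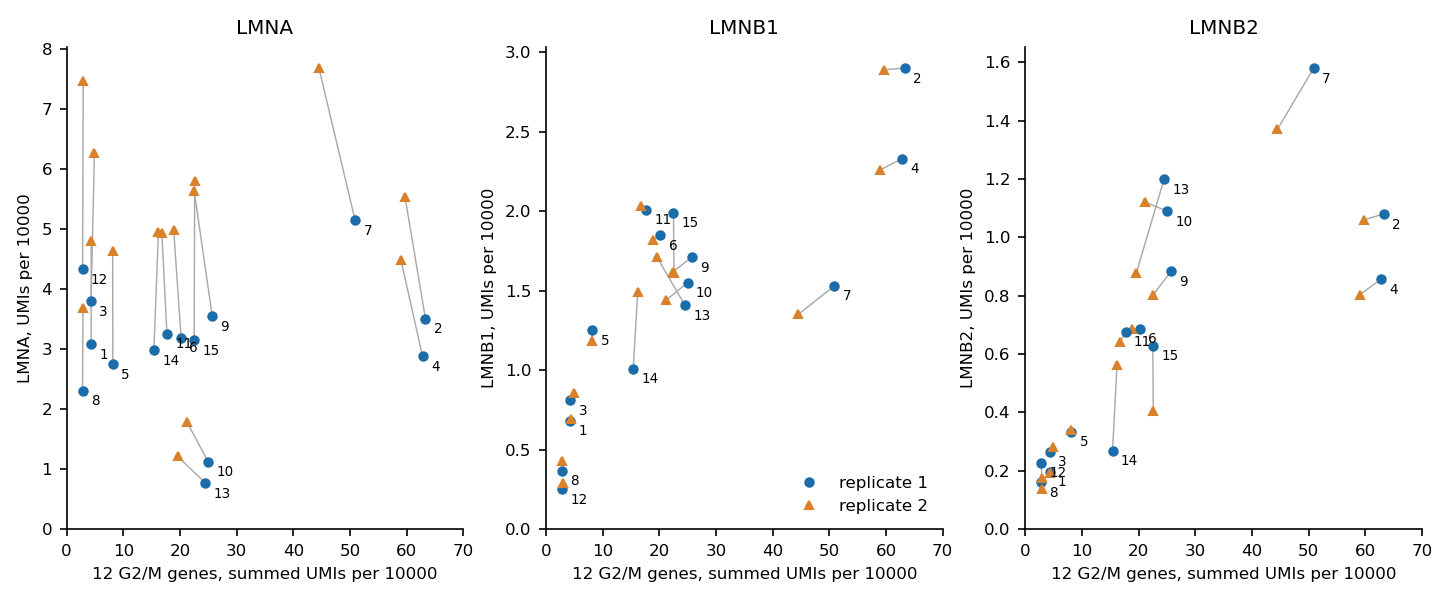
Level of each lamin gene (UMIs per 10000) against the summed level of 12 G2/M marker genes, with 1 point per cluster and library and a line joining the libraries of a cluster. LMNB1 and LMNB2 were lowest in clusters 1, 3, 8 and 12, where the G2/M sum was at most 4.61, and LMNA showed no such order.

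Within clusters, cells that held a UMI of TOP2A, a topoisomerase of dividing cells, were compared with the rest. In cluster 1, LMNB1 was at 0.936 in cells with TOP2A and 0.623 in cells without it. The corresponding values were 1.13 and 0.721 in cluster 3, 0.584 and 0.174 in cluster 12, and 1.76 and 1.14 in cluster 9. In clusters 2 (2.90 and 2.83) and 6 (1.84 and 1.84) the levels were close to each other. In cluster 4 the 99 cells without TOP2A had the higher mean (2.29 with and 2.56 without). This came from replicate 2 (2.24 and 2.77), since replicate 1 had 2.33 and 2.35. In cluster 11 LMNB1 was lower in cells with TOP2A in both libraries (1.97 and 2.17 in replicate 1, 2.01 and 2.10 in replicate 2). Means of LMNA over the libraries were 3.85 with TOP2A and 3.97 without it in cluster 1, and 5.81 and 5.92 in cluster 12. In cluster 1 they came from 3.12 and 3.08 in replicate 1 and 4.58 and 4.87 in replicate 2. In cluster 12 the values were 4.29 and 4.34, and 7.34 and 7.51. In both libraries LMNA was lower in cells with TOP2A in clusters 4 (means 3.66 and 4.27), 5 (3.52 and 3.83) and 9 (4.53 and 4.97), and by less in cluster 12. It was higher in such cells in clusters 8 (means 3.39 and 2.91) and 10 (1.60 and 1.17), again in both libraries. Cells with TOP2A were deeper, with medians of 19173 and 12549 UMIs in cluster 4 and 19187.5 and 13284 in cluster 2. The part of depth in these differences was not tested.

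The makeup of the lamina transcripts therefore differed by cluster, as the ratio of LMNB1 and LMNB2 together to LMNA. This ratio was 1.13 in replicate 1 and 0.714 in replicate 2 in cluster 2, 1.11 and 0.683 in cluster 4, and 0.110 and 0.0622 in cluster 12. It was highest in clusters 13 (3.41 and 2.14) and 10 (2.35 and 1.43). The difference between libraries in this ratio comes with that of LMNA, and cluster 12 was below clusters 2 and 4 in both. The sum of the 3 lamins ran from 3.54 to 9.34.

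To place the fibro-adipogenic cluster beside the muscle cells, cluster 9 was compared with cluster 1, the largest cluster, and with cluster 12. Cluster 9 was lower than cluster 1 in DES (log2 fold change -2.61 ± 0.083, adjusted p = 8.84e-08) and SYNM (-2.09 ± 0.17, adjusted p = 1.69e-05), and higher in VIM (0.76 ± 0.049), LMNB1 (1.16 ± 0.055) and LMNB2 (1.99 ± 0.076). NES (-0.06 ± 0.051, adjusted p = 0.319) and LMNA (0.11 ± 0.23, adjusted p = 0.709) did not pass in the fit without the library as a block. Thus 5 of 7 members passed, beside 63.2% of all genes. Over this and the pairs below, 14 of 21 comparisons of members passed, where 49.5% of all genes did. LMNA passed in none of these 3 pairs without the block. With the library as a block it passed in 2 of the 3, where 59.1% of all genes did.

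Against cluster 12, 6 of 7 members passed beside 68.2% of all genes, with DES at -4.85 ± 0.093 (adjusted p = 5.40e-09), NES at -2.06 ± 0.053, VIM at 1.80 ± 0.052, LMNB1 at 2.42 ± 0.087, LMNB2 at 1.86 ± 0.13 and SYNM at -1.87 ± 0.25. LMNA, at -0.57 ± 0.25, passed with the library as a block (adjusted p = 3.98e-29), where 59.1% of all genes over the 3 pairs did, and not without it (0.0774). Without TMM, the median log2 fold change of all genes went from 0.04 to 0.24 in this pair. Between clusters 9 and 1 it went from -0.03 to 0.09.

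Clusters 6 and 11 had the highest S phase sums and no assigned identity, and differed in DES, NES and VIM. Cluster 6 was higher in DES (log2 fold change 2.28 ± 0.089, adjusted p = 1.05e-05) and NES (1.03 ± 0.047, adjusted p = 2.20e-05) and lower in VIM (-0.57 ± 0.031, adjusted p = 4.54e-05). SYNM differed by 0.16 ± 0.16, LMNB1 by -0.07 ± 0.044, LMNB2 by 0.12 ± 0.060 and LMNA by 0.06 ± 0.23. None of these passed in the fit without the library as a block. The 3 calls among 7 members stand beside 16.5% of all genes. The myoblast markers summed to 6.65 in cluster 6 and 2.42 in cluster 11.

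The shallow clusters gave less certain values. Cluster 7 held the highest NES, LMNA (5.15 and 7.69) and LMNB2 (1.58 and 1.37), and its differences from all other cells depended on TMM scaling. For LMNB2 the log2 fold change was 0.67 ± 0.094 (adjusted p = 0.00203), or 1.32 without TMM, and for NES 1.31, or 1.96 without TMM. LMNB1, at 1.53 and 1.35 against 1.55 and 1.54 over all cells, had -0.76 ± 0.094 (adjusted p = 0.00129), which was -0.11 and not called without TMM (adjusted p = 0.385). SYNM went from 0.11 to 0.76 and was called without TMM alone (adjusted p = 0.0287). Its DES difference of -0.37 (adjusted p = 0.0382) went to 0.01 when cells under 2000 UMIs were left out and to 0.28 when library totals replaced TMM scaling. LMNA, although highest as a share of UMIs, differed by 0.00 ± 0.27 with TMM and by 0.64 without it, and neither passed. Cells of cluster 7 with MYOG had a NES level of 109 and a DES level of 13.3, and those without it 44.9 and 3.83.

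The other intermediate filament genes were mostly counted at low levels. Of 28 on a list of keratins, neurofilaments and others, 26 were in the feature list, 22 had UMIs, and 9 could be tested in cluster 12, of which 6 were higher and 2 lower than in all other cells, where 24.8% of all genes were higher and 29.5% lower. The list shares GFAP, NEFL, KRT8, KRT18 and KRT19 with the marker lists of other cell types, which had at most 28 UMIs each. BFSP2, a filament protein known from the eye lens, was at 2.39 ± 0.0741 in cluster 12 and 0.104 ± 0.00376 in all other cells (log2 fold change 4.71 ± 0.070, adjusted p = 5.76e-07). SYNC (syncoilin), a muscle filament protein that binds desmin, was at 2.63 ± 0.0244 and 0.458 ± 0.0130 (2.70 ± 0.050, adjusted p = 6.89e-07). The median log2 fold change of the 9 genes was 1.61, beside -0.09 for all genes tested.

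Of the genes whose proteins link or guard these filaments, 17 were tested in cluster 12. Among them 11 were called higher and 1 lower, beside 24.8% and 29.5% of all genes. Their median log2 fold change was 1.23, beside -0.09 for all genes tested. NEB (nebulin), the giant protein of the thin filament whose end lies at the Z-disk, was at 14.3 ± 0.762 against 1.86 ± 0.0721 (log2 fold change 3.13 ± 0.071). CRYAB, a small heat shock protein that chaperones desmin, was at 15.7 ± 0.865 against 2.80 ± 0.0718 (2.67 ± 0.067), and MACF1, which crosslinks actin and microtubules, at 5.78 ± 0.115 against 1.69 ± 0.0475 (1.95 ± 0.056). Between clusters 4 and 5, where DES did not pass and NES passed only with the library as a block, 4 of 15 linker genes were higher and 2 lower, beside 9.16% and 7.28% of all genes. Among these CRYAB (-0.30 ± 0.048), the spectrin gene SPTBN1 (0.27 ± 0.048) and the heat shock gene HSPB1 (-0.20 ± 0.044) changed by small amounts.

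Among the partners of the lamins in the nuclear envelope, more were lower than higher in cluster 12. Of 24 tested, 6 (25.0%) were higher and 11 (45.8%) lower, beside 24.8% and 29.5% of all genes, with a median of -0.60. TMPO, which encodes the lamina-associated LAP2 proteins, was at 0.358 ± 0.00672 against 1.24 ± 0.0365 (log2 fold change -1.62 ± 0.068, adjusted p = 8.64e-06), and CBX5, which encodes a heterochromatin protein, was 0.24 ± 0.051 higher (0.06 and not called without TMM). In cluster 4 against cluster 5, 8 of 22 were higher and 0 lower by edgeR, beside 9.16% and 7.28% of all genes, with SYNE2 (nesprin-2, a link from the nucleus to the cytoskeleton) at 1.29 ± 0.057, TMPO at 1.12 ± 0.061 and CBX5 at 0.44 ± 0.047. Of the 5 enzymes that process lamins, 1 was higher and 2 lower in cluster 12, beside the same 24.8% and 29.5%, and FNTA, a subunit of the farnesyltransferase, was at 1.31 ± 0.0601 against 1.25 ± 0.00486 (0.25 ± 0.054, not called without TMM). Over the 4 lists, 40 of 55 genes tested passed in cluster 12, or 72.7%, where 54.3% of all genes did. In cluster 4 against cluster 5, 17 of 50 passed, or 34.0%, where 16.4% of all genes did, and with the library as a block 28 passed, where 35.2% of all genes did.

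The genes whose levels over the 15 clusters were most like those of each member were found among the 2978 genes with a mean level of at least 0.5. For DES they were FITM1 (r = 0.98), KLHL41 (0.97) and PDLIM3 (0.97), for VIM CNPY2 (0.95), PRRX1 (0.94) and TGFB1I1 (0.91), and for NES MAP1A (0.96), ACLY (0.96) and LZTS1 (0.93). SYNM was most like CDC42BPA (0.95), SDF4 (0.92) and ARHGEF12 (0.91), at few UMIs. For LMNA they were ATP5F1B (0.98), PSMD2 (0.97) and UQCRC1 (0.96), for LMNB1 BIRC5 (0.95), CDCA3 (0.95) and PCLAF (0.94), and for LMNB2 MKI67 (0.97) and ENSBTAG00000020100 (0.94). The clusters share libraries and differ in depth, and the correlations describe these 15 points.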

How the data were processed

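The authors aligned the reads of both libraries to ARS-UCD1.2 and used Cell Ranger 3.0.2 to call cells, count UMIs and pool both libraries after matching their mapped reads per cell. The median UMIs per cell still differed, with 14626 and 15206. The deposited UMI counts are whole numbers for 21867 genes in 19096 cells. The authors also deposited, as another unit, an average UMI count per gene and cluster, scaled to a common total. The 30 columns of the authors' comparisons (log2 fold change, p-value) were not used, and 0 columns of single samples were left out. The library of a cell was read from its barcode suffix. The cluster of each of the 19096 cells was deduced from the deposited averages, which convert to whole UMI sums, in 32 rounds, after which 0 of 252240 pairs of gene and cluster differed.

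UMIs were summed per library and cluster (2 sums against 2) and tested with edgeR 4.0.16 (quasi-likelihood, TMM, filterByExpr, Benjamini-Hochberg over all genes, called at an adjusted p under 0.05), which was tested on simulated data. The SE beside a log2 fold change was derived from that test. It is the size of the fitted log2 fold change divided by the square root of the F statistic, so it restates the test. Sums from the same library are paired: the log2 ratios of the libraries (genes with at least 20 UMIs) in the sums compared correlated at 0.17 to 0.67 over 24 comparisons, median 0.51. The library as a block and DESeq2 1.42.0 were among the alternatives. Scrublet's automatic thresholds (0.74 and 0.739) called 1 cell and were not used. The 8% of cells with the highest scores in each library (1528 cells) were left out as an alternative only, and doublets were kept otherwise. Members, lists and tests were chosen with earlier results of these data known. Named genes are the members, per partner list the 3 largest changes called in cluster 12 against all other cells and in cluster 4 against cluster 5 at 1 UMI per 10000 or more, and the 3 genes most like each member. A gene under the last rule is not reported here. Lists of partner and marker genes were written from general knowledge. Sequences of the proteins were not analysed here. Python 3.11.15 and R 4.3.3 were used.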

Additional observations from a re-analysis of the deposited data

How the results depend on the processing

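Most calls among the 7 genes held under the alternatives, with those of LMNA and cluster 7 among the exceptions. Against all other cells 66 of 105 comparisons passed, and 61 to 65 did with cells assigned by profile without the members, without the cells of high doublet score, without cells under 2000 UMIs (98 comparisons, since cluster 15 has no such cell), with the shallow clusters left out of the comparison cells, without a filter on low counts, with library totals or with DESeq2. With the library as a replicate block 79 passed. Of all pairs of gene and cluster, 32.1% passed in the main fit, 23.0% to 33.6% under the former alternatives and 42.3% with the block. For the steps, 31 became 28 to 32, or 39 with the block, and for the other pairs 14 became 14 or 15, or 16 with the block. The shares of all genes over the steps were 30.5%, 18.5% to 31.4%, and 45.4% with the block. Over the other pairs they were 49.5%, 36.9% to 50.6%, and 59.1% with the block. Of 168 single comparisons, the block brought 23 past the threshold, 14 of them LMNA, and took none away. The partner genes called between clusters 4 and 5 went from 17 to 28 with the block, and to 12 to 17 otherwise. DES in cluster 7 turned from -0.37 to 0.01 without cells under 2000 UMIs and to 0.28 without TMM. The share of cluster 12 cells with a DES UMI was 84.8% at 1000 UMIs a cell, 64.6% at 500 and 96.3% at 2000, by construction of the thinning. Leaving out a library, the cluster with the highest level was the same for 6 or 7 of the 7 genes. SYNM was the exception, with cluster 13 highest in replicate 1 alone. Of the 168 values, 40 moved by more than the spread without replicate 1 and 36 without replicate 2. That spread is the SD of the same single-library values. Most values therefore fall inside it by construction, and these counts do not measure stability. With 1 library left a group there is no test. Depth limits SYNM, with 2152 UMIs, and clusters 7, 13, 14 and 15.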
